A study of Populus tremula x Populus alba with 7 samples.

Results

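ChIP-seq peaks of the zinc finger proteins PtrC2H2ZF1 and PtrC2H2ZF2 were compared with those of PtrNAC127 and PtrCORONA, region by region, in leaf of the poplar hybrid Populus tremula × alba. Peaks of the 4 lists that shared at least 1 bp were merged into 1231 regions, and the comparison is about the 529 that hold a peak of every one of the 4, called shared regions here. Merging all 6 lists of the series, which also include PtrARF5a and PtrBLH, gave 5498 regions. In the study, TFs that bind the promoter of PtrPARVUS2, a putative hemicellulose gene, were looked at for the other places they occupy in the genome. Each TF was fused to GFP behind the CaMV35S promoter, which is active in most cell types, and expressed transiently by agroinfiltration of whole plants. The zinc finger side held the PtrC2H2ZF1 and the PtrC2H2ZF2 library, and the other side the PtrNAC127 and the PtrCORONA library, all cross-linked with 1% formaldehyde for 15 min and precipitated with a GFP antibody. Chromatin without antibody was the shared control, and no library of GFP alone was analysed here. There is 1 library for each TF, the TFs of a side are different proteins, and no test between the sides was made. The differences within a side are therefore differences between TFs and not replicate error.

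C2H2 zinc finger proteins hold DNA through fingers folded around a zinc ion. NAC proteins form a plant-specific TF family with members that switch on secondary wall formation, and CORONA belongs to the class III HD-ZIP proteins, which in Arabidopsis take part in vascular patterning and meristem control. In ChIP-seq a bound place appears as a pileup of fragments, and the peak caller sets the pileup against a background taken from the input. Gene features are not given for the regions, since no annotation of the genome of the lists was used here.

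The zinc finger lists lay almost wholly inside the shared regions, and the lists of the other side reached well beyond them. Of the 575 PtrC2H2ZF1 peaks, 92.9% (exact 95% binomial interval 90.5 to 94.8%, counting error only) lay in shared regions, and so did 87.8% of the 607 PtrC2H2ZF2 peaks (84.9 to 90.3%). The shares were 78.4% of the 681 PtrNAC127 peaks (75.1 to 81.4%) and 45.9% of the 1159 PtrCORONA peaks (43.0 to 48.8%). A shared region needs a peak of every list, so there could be at most 569, the number of regions with a PtrC2H2ZF1 peak. PtrC2H2ZF2 had 602 such regions, PtrNAC127 676 and PtrCORONA 1155. The order of the shares is thus set by the lengths of the lists. The shared regions were 43.0% of the 1231 (40.2 to 45.8%), and a further 505 regions held a PtrCORONA peak and no other. Both zinc finger lists and neither other list held 11 regions, whereas PtrNAC127 and PtrCORONA, without either zinc finger list, held 68.

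**Figure D1:**
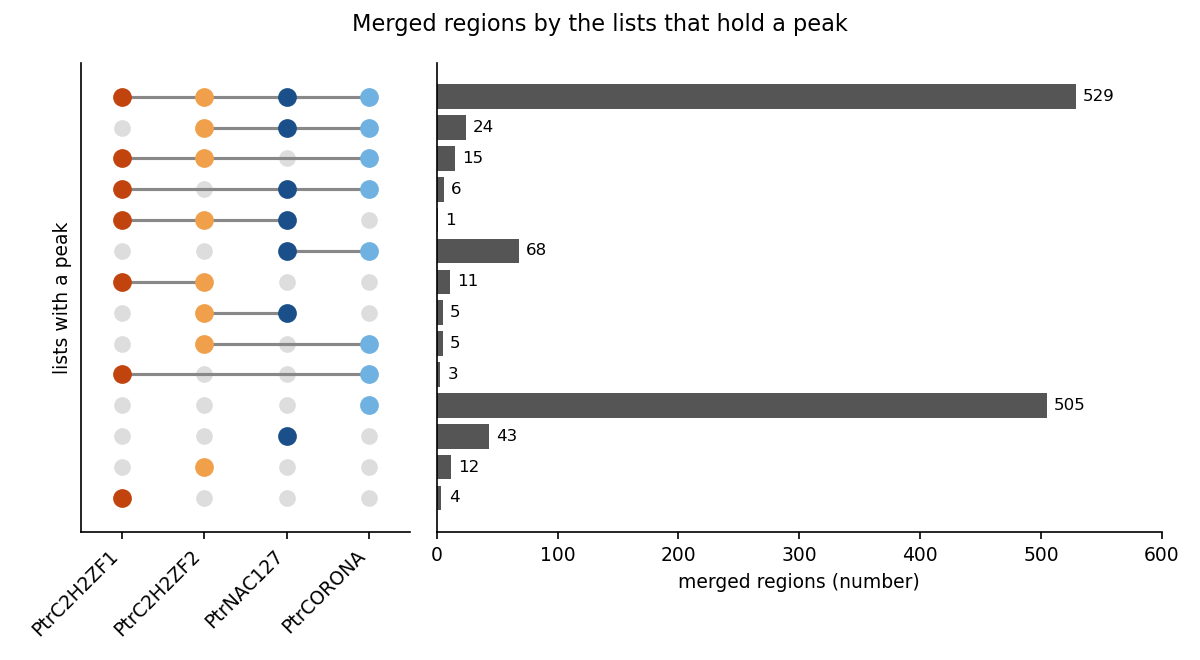
Number of merged regions (bars) for each combination of the 4 lists with a peak (coloured dots; grey dots mark lists without one). The bars of 529 regions with all 4 lists and of 505 with PtrCORONA alone are far longer than those of 11 regions for both zinc finger lists only and 68 for PtrNAC127 and PtrCORONA only.

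Before the ranks are compared, 2 properties of the libraries have to be given, because they divided the same way as the sides. The fold enrichment in a list is the ChIP pileup at the summit plus a pseudocount of 1, divided by the input background plus 1, after the deeper of the ChIP and input libraries has been scaled down to the other. From the fold enrichment and the −log10 p of each peak, the pileup in whole fragments and the input level in input fragments could be recovered for 100% of the peaks in every list, with a misfit in −log10 p of at most 0.00113. The input level is the background the caller used, in units of input fragments, and need not be a count at the summit. It was a whole number in 87.0% of PtrC2H2ZF1, 83.9% of PtrC2H2ZF2, 74.6% of PtrNAC127 and 68.6% of PtrCORONA peaks. The depth of the ChIP library relative to the input came out at 0.233 for PtrC2H2ZF1 and 0.210 for PtrC2H2ZF2, against 1.07 for PtrNAC127 and 0.781 for PtrCORONA. It was 0.527 for PtrBLH and 0.879 for PtrARF5a. The PtrNAC127 and PtrCORONA libraries were thus 3.35 to 5.11 times as deep as the zinc finger libraries. One pseudocount stood for 4.29 and 4.77 input fragments in the PtrC2H2ZF1 and PtrC2H2ZF2 lists, and for 1 and 1.28 in the PtrNAC127 and PtrCORONA lists. In addition, the names of the deposited PtrNAC127, PtrCORONA and PtrBLH lists carry a mark of the alignment that the names of the zinc finger and PtrARF5a lists lack. Depth, this mark and the identity of the TFs cannot be told apart between the sides.

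Ranked by fold enrichment within each list, on a scale of 0 for the lowest to 100 for the highest shared region, the sides ordered the shared regions very differently. Both zinc finger ranks stood above both ranks of the other side in 274 of 529 regions (51.8%), and both stood below in 190 (35.9%). Ranks of the sides overlapped in the other 65 (12.3%). With ranks taken among all peaks of a list instead of among the shared regions, 125 regions were above and 220 below, so which direction was the more common depended on this choice. The median absolute shift, the mean zinc finger rank minus the mean PtrNAC127 and PtrCORONA rank taken without its sign, was 26.8 percentile points (95% order-statistic interval 24.7 to 29.2). Within the sides, the median difference was 3.03 points for the zinc finger lists and 6.44 for PtrNAC127 and PtrCORONA. The shift exceeded both within-side differences in 422 regions (79.8%). Shifts of 20 points or more were upward in 185 regions and downward in 136, and shifts of 50 points or more were upward in 5 and downward in 58, with a range of −94.0 to 52.7.

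Rank correlations over the 529 regions described the same division. Spearman's rho of fold enrichment was 0.978 between PtrC2H2ZF1 and PtrC2H2ZF2 and 0.837 between PtrNAC127 and PtrCORONA, and it lay between 0.184 and 0.375 for the pairs across the sides. The regions share their input and are not independent, so these values are descriptions. The lists outside the comparison did not fall on one side. PtrARF5a had a rho of 0.329 and 0.295 with PtrC2H2ZF1 and PtrC2H2ZF2, against 0.678 with PtrNAC127 and 0.843 with PtrCORONA. For PtrBLH, over the 513 shared regions with a PtrBLH peak, rho was 0.739 and 0.719 with PtrC2H2ZF1 and PtrC2H2ZF2, against 0.477 with PtrNAC127 and 0.736 with PtrCORONA. PtrBLH, whose relative depth lay between those of the sides, was thus about as near to PtrCORONA as to the zinc finger lists.

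The shift nearly disappeared when the regions were ranked by pileup, an ordering added after the data had been seen. By pileup, rho was 0.992 within the zinc finger side, 0.979 within the other side and 0.967 to 0.984 across the sides. The median absolute shift was 2.13 points, beside within-side differences of 1.42 points for the zinc finger lists and 1.52 for PtrNAC127 and PtrCORONA, with a range of −28.6 to 23.6, and 8 regions shifted by 20 points or more. Both zinc finger pileup ranks were above the others in 177 regions (33.5%) and below in 111 (21%), with overlap in 241. Of the 274 regions ranked higher by fold enrichment, 103 were also higher by pileup rank and 46 were lower. Of the 190 ranked lower, 55 were also lower and 53 were higher. The direction of a region's shift therefore differed between the orderings in a large part of the regions with a call in each.

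**Figure D2:**
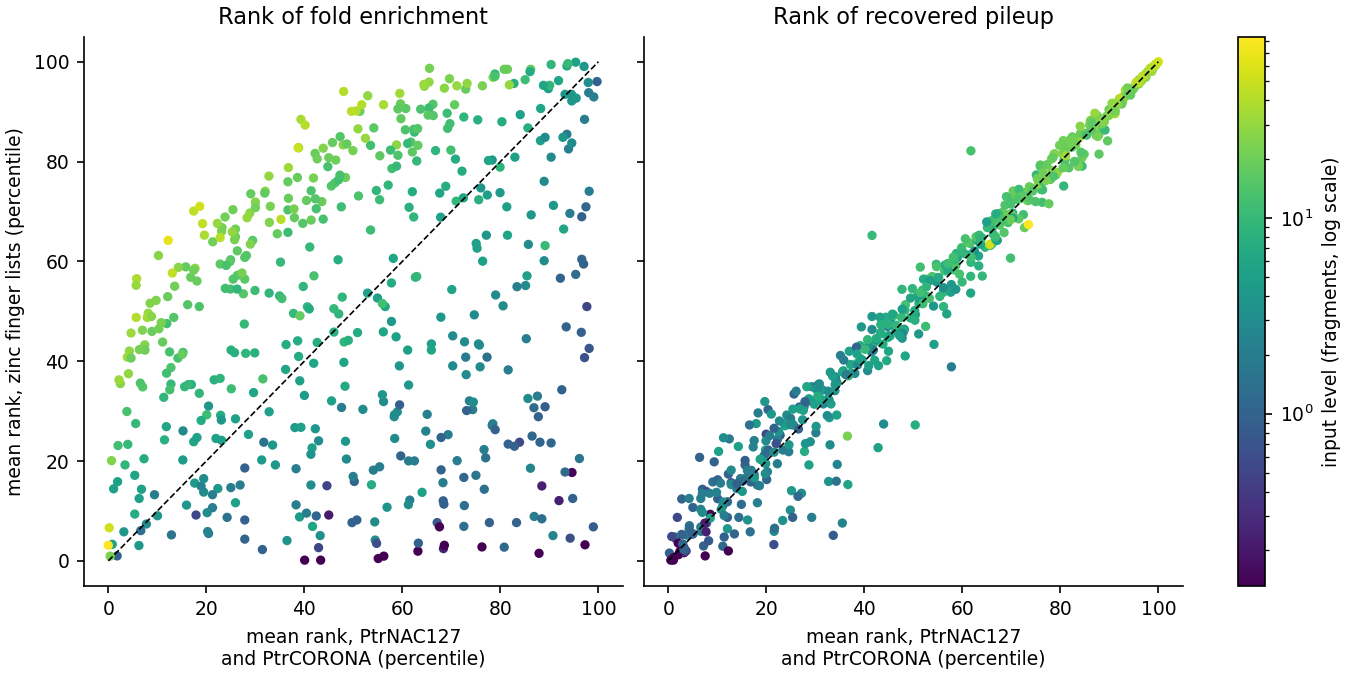
Mean rank of each of the 529 shared regions in the zinc finger lists (vertical axis, percentile) against that in the PtrNAC127 and PtrCORONA lists (horizontal axis, percentile), by fold enrichment on the left and by recovered pileup on the right, coloured by input level on a log scale. By fold enrichment the points fan out, with a median absolute shift of 26.8, and by pileup they lie close to the diagonal, with 2.13.

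With the pileup divided by the input level plus the same number of input fragments in every list, also an ordering added after the data had been seen, the shift took values in between. The median absolute shift was 7.53 points with 5 fragments added and 14.5 with 1 fragment added. By −log10 q it was 4.97 points. Beyond these values, the part of the pseudocount in the shift of 26.8 points was not tested.

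The shift followed the input level of the region, with a rho of 0.926 over the 529 regions. The input level is a term of every fold enrichment, so this relation is not independent of the ranks. The 4 lists share the input, so their input levels were nearly the same by design, with a median of 7 fragments in each and a rho of 0.989 to 0.997 between lists. Fold enrichment ran with the input level in PtrC2H2ZF1 and PtrC2H2ZF2 (rho 0.581 and 0.606) and against it in PtrNAC127 and PtrCORONA (−0.551 and −0.350). Pileup ran with it in all 4 (0.920 to 0.926). PtrBLH and PtrARF5a had rho values of fold enrichment with input of 0.136 and −0.291.

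Divided into 4 bins of nearly equal size by input level, the shared regions showed where the sides parted. In the lowest bin (133 regions, up to 3 input fragments) the median shift was −43.2 points. Zinc finger ranks were lower in 122 of these regions and higher in 1. In the highest bin (132 regions, 16.5 fragments and more) the median shift was 36.8 points, and zinc finger ranks were higher in 131 regions and lower in 0. The 2 bins between had median shifts of −6.51 and 19.6 points.

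Median fold enrichment climbed with the input bin in the zinc finger lists and declined in the lists of the other side. For PtrC2H2ZF1 it was 15.7, 26.1, 32.7 and 36.3 over the bins from low to high input, and for PtrC2H2ZF2 14.9, 25.3, 33.6 and 37.6. For PtrNAC127 it was 18.1, 13.7, 11.2 and 10.1, and for PtrCORONA 17.6, 16.1, 14.0 and 13.0. In median fold enrichment, the sides were thus closest in the lowest bin and farthest apart in the highest. A pseudocount stood for more input fragments in the zinc finger lists, so these sizes cannot be compared directly between the sides. By rank the order differed. The median shift was largest in size in the lowest bin (−43.2 points, against 36.8 in the highest) and smallest in bin 2 (−6.51). PtrBLH was nearly level, from 14.2 to 17.6, and PtrARF5a had 18.8 in the lowest bin and 14.2 in the highest. The pileups drew together instead. In the lowest bin the median pileup was 20 and 19 fragments for PtrC2H2ZF1 and PtrC2H2ZF2, against 44 and 37 for PtrNAC127 and PtrCORONA. In the highest bin it was 230 and 218 fragments, against 258 and 238.5. A several-fold difference in depth was therefore not matched by an equal difference in pileup in either of these bins, and least of all in the highest.

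**Figure D3:**
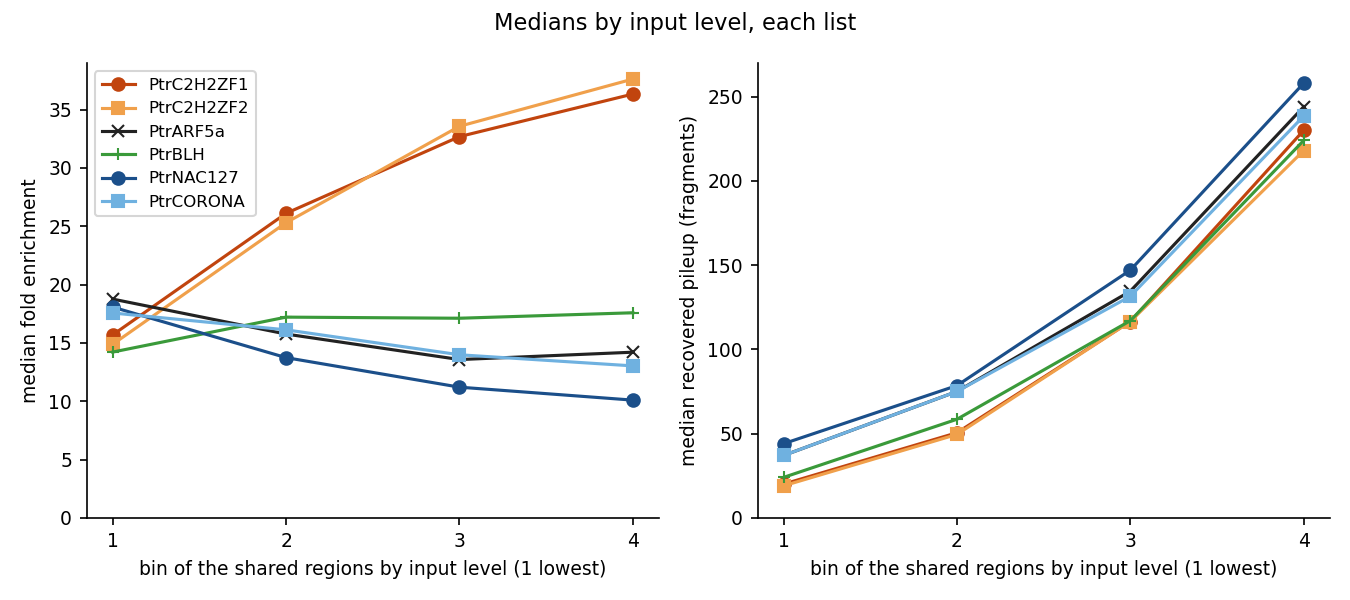
Median fold enrichment (left) and median recovered pileup in fragments (right) of each list in the 4 bins of shared regions by input level, bin 1 the lowest, both axes starting at 0. In bin 4 the zinc finger lists reach fold enrichments of 36.3 and 37.6 against 10.1 and 13.0 for PtrNAC127 and PtrCORONA, while their pileups of 230 and 218 fragments lie close to 258 and 238.5.

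**Figure D4:**
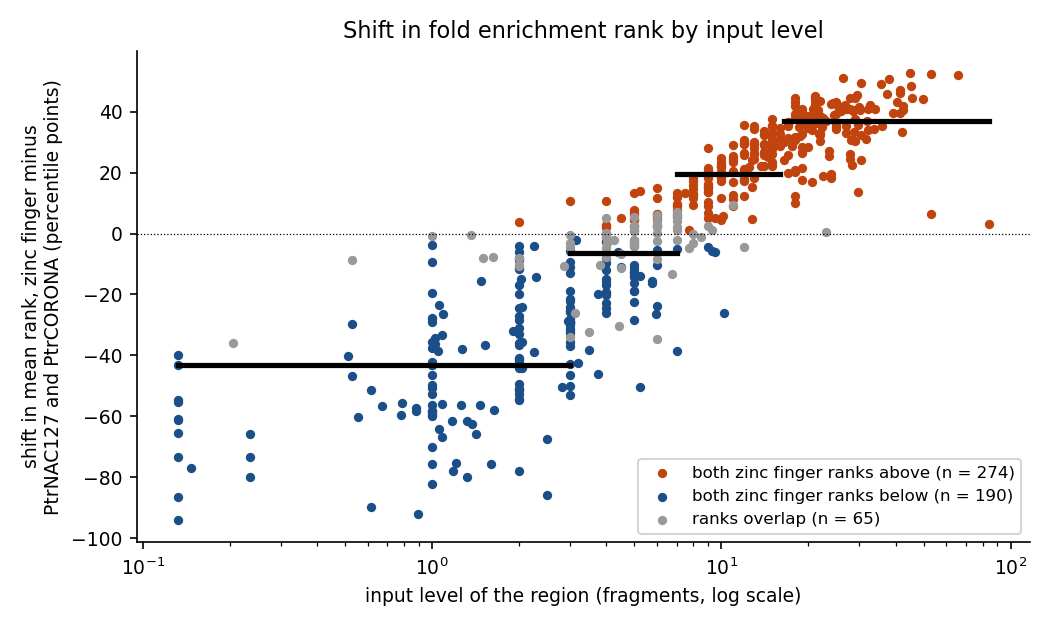
Shift in mean rank of fold enrichment, zinc finger minus PtrNAC127 and PtrCORONA (percentile points), against the input level of each shared region (fragments, log scale). Points are regions coloured by whether both zinc finger ranks were above (274), below (190) or overlapping (65), and black bars are the medians of the input bins, from −43.2 to 36.8.

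Regions that stood higher in the zinc finger lists were wide and rich in input. The 274 regions had a median width of 644.5 bp and a median input level of 15.0 fragments, and 37 of them (13.5%) were wider than 1 kb. The 190 regions that stood lower had a median width of 547 bp and a median input level of 2 fragments, and 7 of them (3.68%) were wider than 1 kb. Over all shared regions the median width was 579 bp and the range 456 to 8688 bp, and the shift had a rho of 0.504 with width. On unplaced scaffolds lay 25 of the regions that stood higher (9.12%) and 9 of those that stood lower (4.74%), against 37 of all 529 (6.99%). The shift also ran with the pileup of a region, with a rho of 0.879 and 0.877 for PtrC2H2ZF1 and PtrC2H2ZF2 pileups, against 0.844 and 0.831 for those of PtrNAC127 and PtrCORONA. Pileup, like input level, is a term of the fold enrichment.

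PtrARF5a and PtrBLH had no part in choosing or ranking the regions. All 529 shared regions held a PtrARF5a peak. PtrBLH had a peak in 273 of the 274 regions that stood higher (99.6%, exact 95% binomial interval 98.0 to 100%) and in 179 of the 190 that stood lower (94.2%, 89.9 to 97.1%). The median PtrARF5a rank was 40.6 in the regions higher in the zinc finger lists and 71.5 in those lower, the same direction as in PtrNAC127 and PtrCORONA. Over the 529 regions its rank had a rho of −0.354 with the shift. The shared input is a term of the PtrARF5a fold enrichment as well, so this direction is not independent of the ranks of the sides. The median PtrBLH rank was 53.4 and 47.2 in the same sets, close to 50 over all shared regions.

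Among the regions with the largest downward shifts, the first lay on chromosome 5 from 17281084 to 17281634, with an input level of 0.132 fragments. Its fold enrichment was 6.79 and 7.78 for PtrC2H2ZF1 and PtrC2H2ZF2, against 34.7 and 29.1 for PtrNAC127 and PtrCORONA, a shift of −94.0 points. The pileups were 6 and 7 fragments, against 41 and 31. By fold enrichment it was thus among the weakest regions of the zinc finger lists and among the strongest of the other side. By pileup it ranked low in all 4 lists, at 1.70 and 2.27 against 13.4 and 11.2, a shift of −10.3 points. PtrARF5a had a fold enrichment of 27.2 there, near PtrNAC127 and PtrCORONA, and PtrBLH had 6.56, near the zinc finger lists. The input level of 0.132 is a background and not a count, and the chromosome 11 region named below had the same level.

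The region on chromosome 2 from 11887088 to 11887702 held the highest PtrNAC127 fold enrichment of all shared regions. Values were 5.80 and 12.6 for PtrC2H2ZF1 and PtrC2H2ZF2, against 42.3 and 33.6 for PtrNAC127 and PtrCORONA (shift −92.1). Pileups were 6 and 14 fragments, against 85 and 56. This region also kept the largest downward shift by pileup rank (−28.6), so it stood apart in both orderings. PtrARF5a had a fold enrichment of 39.9 and PtrBLH 8.20 there.

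Downward shifts on chromosomes 9 and 8 differed from these in the PtrBLH value. From 11801052 to 11801678 on chromosome 9, fold enrichment was 7.86 and 8.84 for PtrC2H2ZF1 and PtrC2H2ZF2, against 20.9 and 47.5 for PtrNAC127 and PtrCORONA, with pileups of 8 and 9 fragments against 35 and 69. From 404097 to 404697 on chromosome 8, it was 8.80 and 8.45, against 18.7 and 35.9, with pileups of 16 and 11 fragments against 59 and 91. In both regions PtrARF5a (55.8 and 46.4) and PtrBLH (41.1 and 38.5) were high as well, with ranks of 98.1 to 99.2. The zinc finger lists alone were low there, and PtrCORONA exceeded PtrNAC127. The shifts by pileup rank were −18.3 and −27.9.

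The remaining regions of this set lay on chromosome 11 (7839316 to 7839876, shift −86.4), scaffold_207 (53562 to 54427, −82.2), chromosome 8 (9652672 to 9653201, −80.0) and scaffold_41 (90579 to 91120, −79.9). Their fold enrichments were 4.85 to 13.3 in the zinc finger lists, against 19.1 to 33.1 for PtrNAC127 and PtrCORONA. By pileup rank their shifts were smaller, at −6.53, −16.7, −15.2 and −1.89 points in the same order. PtrBLH had no peak in the chromosome 11 region or in this chromosome 8 region. All 8 regions were 530 to 866 bp wide and had an input level of at most 2.5 fragments.

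Upward shifts were led by regions in which the pileup hardly differed between the lists. On chromosome 2, from 18379052 to 18385286, a region of 6235 bp had a fold enrichment of 35.4 for PtrC2H2ZF1 and 38.0 for PtrC2H2ZF2, against 8.95 for PtrNAC127 and 11.1 for PtrCORONA (shift 52.7). Its pileups were 397 and 388 fragments, against 440 and 408, over an input level of 44.8. All 4 pileup ranks lay between 96.4 and 96.8, so by pileup this was one of the strongest regions of every list. A region close to it on chromosome 2, from 18372324 to 18376215 (3892 bp, shift 52.0), held the highest pileup of all shared regions in each of the 4 lists. These pileups were 551 and 539 fragments for PtrC2H2ZF1 and PtrC2H2ZF2, against 568 and 552 for PtrNAC127 and PtrCORONA. PtrARF5a had 334 fragments there, and its fold enrichment rank was 3.79.

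The region on chromosome 10 from 5747077 to 5747990 had the next largest shift after the first (52.4). Fold enrichment was 37.6 and 36.8 for PtrC2H2ZF1 and PtrC2H2ZF2, against 8.68 and 11.7 for PtrNAC127 and PtrCORONA. Pileups were 475 and 468 fragments, against 501 and 494. The zinc finger values were thus higher in fold enrichment and lower in raw fragments, which are not adjusted for the depths given above. By pileup rank the sides hardly differed, at 99.1 and 98.9 against 98.7 and 98.9 (shift 0.189). On chromosome 17, from 15098168 to 15099343, the zinc finger lists themselves differed in fold enrichment, at 38.9 and 65.5, against 10.6 and 14.1 for PtrNAC127 and PtrCORONA. Their pileups were nearly equal, at 410 and 408 fragments, against 453 and 430. The PtrC2H2ZF1 summit was at 15098610 with an input level of 41, and the PtrC2H2ZF2 summit at 15098800 with 25. The fold enrichment rank of 99.6 there in PtrC2H2ZF2 was one of its highest.

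The other regions of this set lay on chromosome 15 (8637258 to 8637912, shift 50.9), chromosome 3 (10180336 to 10181082, 50.8), chromosome 10 (11425250 to 11425919, 49.5) and chromosome 4 (12469367 to 12470235, 48.3). Fold enrichment in these was 29.4 to 37.1 in the zinc finger lists, against 7.28 to 11.5 for PtrNAC127 and PtrCORONA. PtrBLH fell between the sides in rank in all 8 upward regions. Input levels of the 8 were 26.2 to 66.0 fragments, and the shift by pileup rank was at most 3.03 points.

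**Figure D5:**
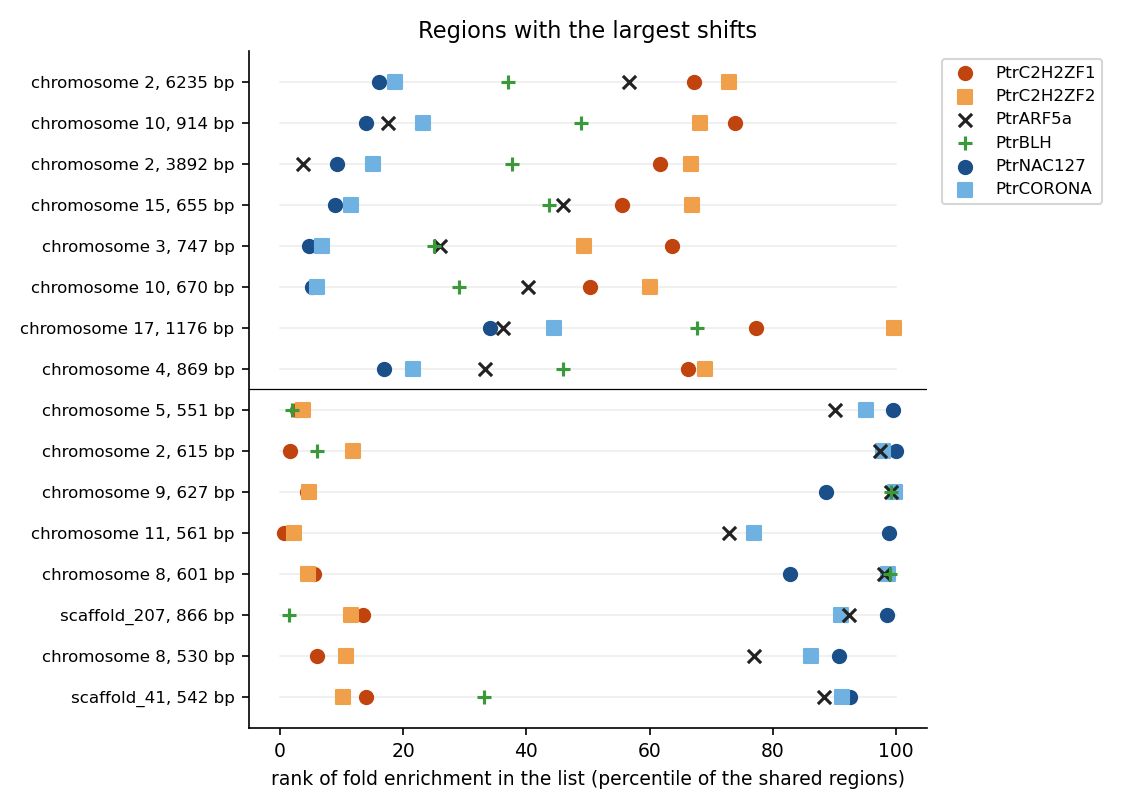
Rank of fold enrichment (percentile of the shared regions) in the 6 lists for the 8 regions with the largest upward shift (above the line) and the 8 with the largest downward shift (below it), labelled by sequence and width. The PtrC2H2ZF1 and PtrC2H2ZF2 symbols lie far from the PtrNAC127 and PtrCORONA symbols in every row, and PtrBLH changes sides among the downward regions, with ranks from 1.56 to 99.2.

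Summits lay at nearly the same place on both sides. The distance between the mean summit positions of the sides had a median of 7 bp (95% order-statistic interval 6.5 to 8 bp), beside 6 bp within the zinc finger lists and 6 bp between PtrNAC127 and PtrCORONA. It exceeded 100 bp in 16 regions, beside 25 regions within the zinc finger lists and 13 between PtrNAC127 and PtrCORONA. The distance between the sides is one of averaged summits and those within a side are of single summits. The distance had a rho of −0.0573 with the shift. Summit distance in regions higher in the zinc finger lists had a median of 6 bp, and in those lower 7.5 bp.

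The widest distances came from wide regions in which some of the lists held more than 1 peak. The summit taken is that of the peak with the largest fold enrichment, so such a distance can come from the choice of peak. On chromosome 13, from 9588836 to 9593118, the summits were at 9590459 and 9589746 for PtrC2H2ZF1 and PtrC2H2ZF2, against 9592701 and 9592697 for PtrNAC127 and PtrCORONA. Here the sides were apart, with fold enrichments of 50.5 and 39.9 against 14.0 and 16.4. On chromosome 9, from 987524 to 991768, only PtrC2H2ZF1 differed, with its summit at 987892 against 991270 for PtrC2H2ZF2 and 991301 and 991306 for PtrNAC127 and PtrCORONA. On chromosome 14, from 6428333 to 6429853, PtrC2H2ZF2 held 1 peak and each other list 2. The summit taken was at 6429343 for PtrC2H2ZF2, against 6428602 for PtrC2H2ZF1 and 6428594 for both others. Summits of the second peaks were not compared, so a difference of PtrC2H2ZF2 is not shown. The pileups taken were 57 fragments for PtrC2H2ZF1 and 265 for PtrC2H2ZF2, and this region gave the largest upward shift by pileup rank (23.6). Peaks in the shared regions were also of nearly equal width, with a median of 555 and 556 bp in the zinc finger lists and 556 bp in each of the others. Both zinc finger peaks were wider than both others in 263 regions and narrower in 90, and the median difference was 7.5 bp.

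By chromosome, the share of shared regions higher in the zinc finger lists varied widely. It was 31 of 46 (67.4%) on chromosome 2, where the median input level was 10.5 fragments, 20 of 30 (66.7%) on chromosome 4 (10 fragments) and 25 of 37 (67.6%) on the scaffolds (13.0 fragments). It was 4 of 15 (26.7%) on chromosome 12 (4 fragments) and 8 of 23 (34.8%) on chromosome 18 (3 fragments). Chromosome 1, with the most shared regions, had 29 of 61 (47.5%) at a median input level of 7 fragments. Chromosomes 7 and 8, at the same median input level as chromosome 4, had 7 of 13 (53.8%) and 9 of 18 (50%), and chromosome 17, at 8 fragments, had 11 of 23 (47.8%). The share over all shared regions was 51.8%. Counts by chromosome were small, and some chromosome 2 regions lay close together. All shared regions from 18343657 to 18385286 there, the 2 named above among them, stood higher in the zinc finger lists. Each is counted separately in the 31 of 46, so this share rests in part on a single stretch. Whether the share of a chromosome followed its input level was not tested. These chromosomes were chosen after their values had been seen.

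The 11 regions of both zinc finger lists only were sites of very high input. They were 0.894% of the merged regions (exact 95% binomial interval 0.447 to 1.59%), with a median input level of 244.5 fragments, which compares with 7 in the shared regions. Fold enrichments were low, with medians of 2.83 and 3.04 for PtrC2H2ZF1 and PtrC2H2ZF2, on pileups of 139 and 138 fragments. A PtrBLH peak lay in 9 of the 11 (81.8%, 48.2 to 97.7%) and a PtrARF5a peak in 3 (27.3%, 6.02 to 61.0%), beside 97.0% and 100% of the shared regions. Without the PtrC2H2ZF1 library the number was 23, and without the PtrCORONA library it was 26, so this count rests on single lists. With peaks of a −log10 q of at least 10 only, it was 18. The nearest peak of the other side lay a median of 4626 bp away, against 218434 bp for the regions of PtrNAC127 and PtrCORONA only. A site without a PtrNAC127 or PtrCORONA peak is not shown to be free of signal.

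The strongest of them by the lower −log10 q of both lists lay on chromosome 10 from 5228937 to 5229511. Its −log10 q was 43.3 and 50.9 for PtrC2H2ZF1 and PtrC2H2ZF2, its fold enrichment 3.33 and 3.76, and its pileup 201 and 200 fragments over an input level of 253. Next were regions on chromosome 13 from 14863423 to 14863982 (fold enrichment 3.08 and 2.94) and on chromosome 15 from 14987071 to 14987596 (4.59 and 4.78). Then came 2 regions on chromosome 11, from 7194114 to 7194671 (2.83 and 3.04) and from 7192244 to 7192916 (2.51 and 2.42). Another 2 of the 11 lay beside them on chromosome 11, named after their values were seen, from 7195373 to 7195945 and from 7196250 to 7196870. A single region departed from this description, on chromosome 16 from 12808484 to 12808783, also named after its values were seen. It had an input level of 0.772 fragments, pileups of 7 and 10 fragments and fold enrichments of 6.78 and 9.47.

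The 68 regions of PtrNAC127 and PtrCORONA only mostly had low input levels and small pileups. They were 5.52% of the merged regions (4.31 to 6.95%), with a median input level of 0.972 fragments and a range of 0.130 to 22. Median fold enrichments were 9.09 for PtrNAC127 and 8.70 for PtrCORONA. Median pileups were 19.5 fragments (range 6 to 72) and 15 fragments (5 to 74). PtrARF5a had a peak in 60 of the 68 (88.2%, 78.1 to 94.8%) and PtrBLH in 10 (14.7%, 7.28 to 25.4%), the opposite order to that in the regions of the zinc finger lists. In the shared regions the shares were 100% and 97.0%, and the lists held 5397 PtrARF5a and 1023 PtrBLH peaks. The shares over all merged regions are not given here, so neither set is said to be rich or poor in these peaks. The zinc finger libraries were shallower by the factors given above, and the smallest pileup of any peak in these lists was 3 fragments. A site without a zinc finger peak is not shown to be free of signal, and the part of depth in these missing peaks was not tested. Without the PtrNAC127 library the number was 574, and without the PtrCORONA library 111.

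The strongest of these lay on chromosome 19 from 2488995 to 2489534, with fold enrichments of 24.6 for PtrNAC127 and 19.6 for PtrCORONA on pileups of 33 and 23 fragments. PtrARF5a (14.0) and PtrBLH (5.22) also had peaks there. On scaffold_966, from 7278 to 7825, fold enrichments were 8.41 and 8.66, on pileups of 71 and 55 fragments. The input level there was 7 fragments, the highest among the strongest 8. The others lay on chromosome 7 (4474838 to 4475366), chromosome 1 (38875574 to 38876116 and 41563875 to 41564398), chromosome 2 (9992975 to 9993493) and chromosome 8 (5625840 to 5626550 and 15366562 to 15367099). Their fold enrichments were 10.9 to 19.6 for PtrNAC127 and 11.8 to 18.0 for PtrCORONA, and each had a PtrARF5a peak and no PtrBLH peak.

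Regions missing from a single list differed in input level by the list that lacked them. PtrC2H2ZF1 alone had no peak in 24 regions, with a median input level of 1.00 fragment, and PtrC2H2ZF2 alone in 6, with 0.566 fragments. PtrNAC127 alone had none in 15 regions, with a median input level of 214 fragments, and PtrCORONA alone in 1, with 1.27 fragments. In the 15 regions without a PtrNAC127 peak the median fold enrichment was 3.01 and 3.42 for PtrC2H2ZF1 and PtrC2H2ZF2, against 1.57 for PtrCORONA, on median pileups of 146 and 150 fragments against 348.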

How the data were processed

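ChIP-seq peak lists of 6 TF-GFP fusions were analysed, and the input sample served only through the lists. The authors trimmed paired-end reads with Trimmomatic, mapped them with Bowtie2 to the genome of a Populus tremula × alba clone, used SAMtools to drop duplicates and all reads below a mapping quality of 30, and called peaks for each library with MACS2, for which the submitters' processing notes give version 2.1.0. Other versions are not given in the sources used here. The deposited values are a fold enrichment, which is a ratio to the input background, a −log10 p-value and −log10 q-value, and a whole-number score, which was not used. Positions follow the lists and count from 1.

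Peaks sharing at least 1 bp were merged, and the largest fold enrichment of a list's peaks in a region was ranked among the 529 shared regions. Pileup and input level were recovered by solving the caller's formula for fold enrichment together with its Poisson p, under its default scaling, and the input level of a region is the mean over the lists with a peak. Reads per library are unknown, so only depth relative to the input is given. Intervals cover counting error only. The comparison, members and lists were chosen with earlier results of these data known. Named are the 8 largest shifts each way among regions whose ranks did not overlap, the 5 and 8 side-only regions with the largest lower −log10 q, and the 3 widest summit distances. Alternatives were other merging, filters, rankings and each library left out. Code was tested on simulated data. The tools were pandas 2.3.3, scipy 1.17.1 and numpy 2.4.6 under Python 3.11.15, with matplotlib 3.10.9 for the figures. Gene features and sequences were not analysed here.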

Additional observations from a re-analysis of the deposited data

How the results depend on the processing

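Counts of regions, the median shift and the summit distance were recomputed under other merging distances, filters and rankings, and with each library left out. Of 71 values, 56 were counted as close to the reported ones, under a wide tolerance. Among these 56 were 132 regions below by −log10 q, against 190 reported. Another was 92 regions of PtrNAC127 and PtrCORONA only without the PtrC2H2ZF2 library, against 68 reported. Ranking among all peaks of a list gave 125 regions with both zinc finger ranks above, 220 below and a median absolute shift of 19.2, and ranking by −log10 q gave a shift of 4.97. Only peaks with a −log10 q of at least 10 left 18 regions of both zinc finger lists only. Other rankings were added after the data had been seen. By recovered pileup, 177 regions were above and 111 below, with a median absolute shift of 2.13. By pileup over input plus 5 fragments, 122 were below, with a shift of 7.53, and with 1 fragment added the shift was 14.5. With each library left out in turn, the shared regions numbered 530 to 553, those above 290 to 302 and those below 209 to 217, with a median absolute shift of 23.4 to 28.3. The regions of both zinc finger lists only numbered 12 to 26, and those of PtrNAC127 and PtrCORONA only 74 to 574. A side with 1 library left overlaps less easily with the other, which raises the counts above and below by construction. Of 112 values for the 16 named regions, 37 stayed close, 74 moved without a change of sign and 1 reversed, the region on chromosome 4 from 12469367 to 12470235, whose shift was −0.0473 by recovered pileup. Relative depth and input levels rest on the caller's default scaling, and sites weaker than the smallest recorded pileups could not be compared.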
